A study of Mus musculus with 12 samples.

Results

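The interaction of Sirt3 genotype and diet was measured in mouse pancreatic islets by RNA sequencing, as the effect of the knockout under a high fat diet minus its effect under a standard diet. All 12 libraries of the series enter it, 3 in each of 4 groups, and all genes were considered: of 54532 genes listed, 29339 had a count and 16076 were counted deeply enough to be tested. The groups were HFD KO, HFD WT, STD KO and STD WT, where KO is a knockout of Sirt3 selective for pancreatic beta cells and WT is wild type, all in male C57BL/6 mice labelled as 40 weeks old. STD is a standard diet with 6.2% fat, given throughout. HFD is a diet with 60% of calories from fat, given for 36 weeks after a first period of standard food that lasted 4 weeks in every HFD WT library, 6 weeks in HFD KO 1 and HFD KO 3 and 5 weeks in HFD KO 2. In the HFD KO libraries both feeding periods together exceed the labelled age of 40 weeks, so the labels conflict and age may differ between groups. Genotype and the length of that first period differ together under the high fat diet, so they cannot be told apart in the knockout effect under HFD. Neither the Cre line that drives the knockout nor the exons it removes are stated in the labels, which also leave unsaid if each library is from its own animal. The p-values therefore measure the spread between these libraries, which may be partly technical.

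Sirt3 encodes a deacetylase of the mitochondrial matrix that uses NAD and acts on enzymes of fuel oxidation and redox defence. Islets are clusters of endocrine cells in which insulin-secreting beta cells are the most common type in the mouse, and long feeding of a fatty diet places a high secretory demand on them. An interaction asks whether the knockout changes a transcript by a different factor under the 2 diets; a gene with a large but equal knockout effect under both has an interaction of 0 on the log2 scale.

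Total counts per library lay between 16037709 and 20864920. Abundance is given as CPM, counts relative to library size, scaled by edgeR's TMM factors. Sirt3 itself stood at 7.85, 11.5 and 6.21 CPM in HFD KO, 11.4, 9.30 and 11.8 CPM in HFD WT, 6.59, 5.97 and 5.86 CPM in STD KO and 9.04, 11.3 and 11.5 CPM in STD WT. The library labelled HFD KO 2 lay inside the WT range, and the other 5 KO libraries lay below every WT library. Its interaction was 0.44 (SE 0.31, 95% interval −0.25 to 1.13, edgeR adjusted p = 0.672). Insulin transcripts were abundant in every library: Ins2 ranged from 115566 to 284392 CPM and Ins1 from 57077 to 131693 CPM. Exocrine markers were also present, with a summed level of 20046 to 29370 CPM in HFD KO, 24051 to 42688 CPM in HFD WT, 12211 to 36521 CPM in STD KO and 7316 to 37457 CPM in STD WT for 22 acinar genes. Transcripts of liver and gut marked 2 of the STD KO libraries. A list of 12 hepatocyte genes, drawn up after these values were seen, summed to 3734 CPM in STD KO 1, to 191 CPM in STD KO 3 and to between 53.0 and 82.1 CPM in the other 10 libraries, and Alb, which encodes serum albumin, had 2404 CPM in STD KO 1 against 49.1 CPM in the next highest library. A list of 10 genes of the intestinal epithelium, also drawn up after the values were seen, summed to 612 CPM in STD KO 3 and to at most 306 CPM elsewhere.

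No gene passed the threshold for the interaction: 0 of 16076 (0%) had an adjusted p under 0.05 in edgeR's quasi-likelihood test, and 1271 (7.91%) had an unadjusted p under 0.05, of which 608 (3.78%) had a positive and 663 (4.12%) a negative value. That split depended on the scaling: it was 371 positive and 656 negative with offsets corrected for gene length, and 325 positive and 785 negative on log2(FPKM + 1), where the median over all genes was −0.11 against 0.01 on counts. The Wald test of DESeq2 called 31 (0.193%). The genes with the smallest p had larger knockout effects under the high fat diet than under the standard diet, in either direction. They were led by Eef1a2, a translation elongation factor of muscle and neurons, on the positive side and by Hdac6, a cytoplasmic deacetylase of tubulin, on the negative side. In both, HFD KO and HFD WT did not overlap, which their choice by p favours, and neither interaction passed after adjustment over all genes.

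The precision of this contrast was lower than that of either knockout effect. Its median standard error over genes was 0.330 on the log2 scale, against 0.234 for the knockout effect under the high fat diet and 0.234 under the standard diet, since it carries the spread of all 4 groups. In counts simulated at this spread, 66 of 100 genes with a 4-fold interaction were recovered but 5 of 100 with a 2-fold one. The simulation drew each gene independently and held no shifts shared across a library, so these shares may not carry over to the data. In it interactions of about 2-fold were mostly missed with 3 libraries a group. The count of 0 thus does not show that the knockout acted alike under both diets. The share of genes with an unadjusted p under 0.05 also moved with single libraries. It was 4.05%, 4.67%, 4.11% and 4.32% without STD KO 1, STD KO 3, HFD WT 3 and HFD KO 1, and 12.5% and 18.5% without STD KO 2 and HFD KO 3.

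The knockout effects under the 2 diets shared their direction among the genes called under both. Under the high fat diet 1189 genes (7.4%) passed between KO and WT, 627 (3.9%) higher and 562 (3.5%) lower, and under the standard diet 275 (1.71%) passed, 216 (1.34%) higher and 59 (0.367%) lower. Of the 216 genes that were higher in KO under the standard diet, all 216 had positive knockout effects under the high fat diet and 202 (93.5%) were called there, with median log2 effects of 2.40 under the high fat and 2.05 under the standard diet. Of the 59 lower genes, all 59 were negative under the high fat diet and 49 (83.1%) were called, with medians of −1.44 under the high fat and −1.18 under the standard diet. Read the other way, 202 of the 627 higher genes (32.2%) and 49 of the 562 lower genes (8.72%) under the high fat diet were also called under the standard diet. No gene was called in opposite directions. The 4 groups share no library, and over all genes the knockout effects under the 2 diets had a Pearson correlation of 0.54 (Spearman 0.34), a description across genes that are not independent replicates.

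A call under one diet and not under the other is not a difference between diets. Of 938 genes called under the high fat diet alone, 203 had a positive and 274 a negative interaction at an unadjusted p under 0.05, a share of 50.9% that the choice of genes by their high fat effect raises by construction. The counts under both diets also depended on single libraries. Under the high fat diet 744, 524, 519, 759 and 2899 genes passed without HFD WT 1, HFD WT 3, HFD KO 1, HFD KO 2 and HFD KO 3. Under the standard diet 146, 158, 174 and 158 passed without STD WT 2, STD KO 1, STD KO 2 and STD KO 3.

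**Figure D1:**
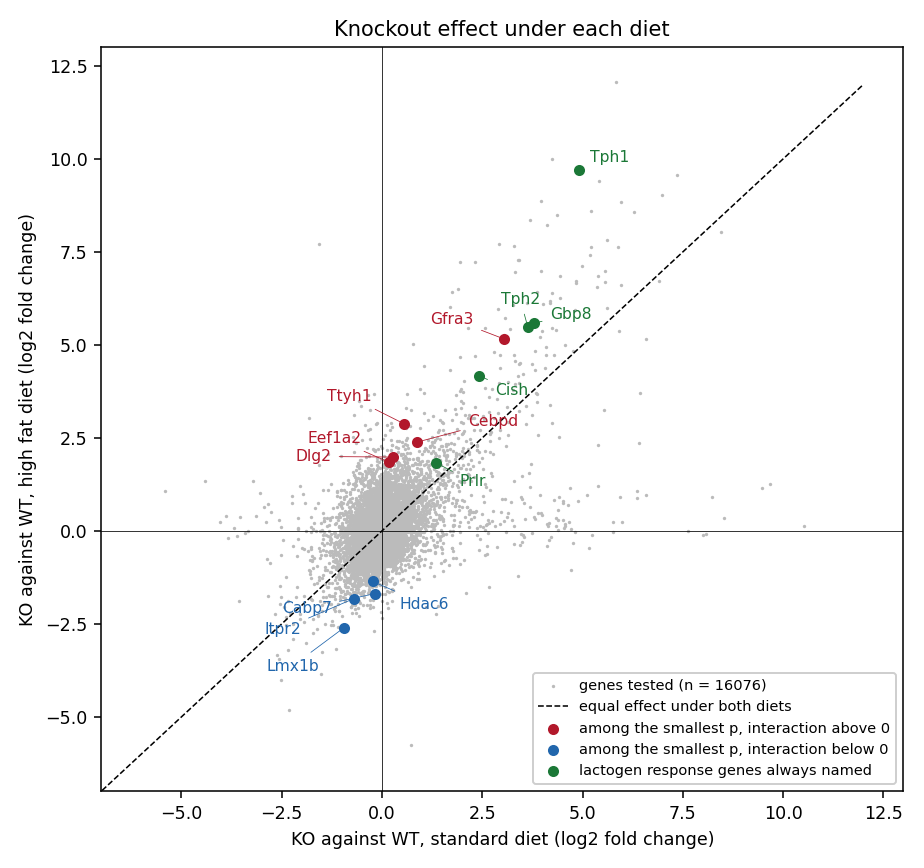
Knockout effect of each of the 16076 genes tested under the high fat diet (vertical axis, log2 fold change of KO over WT) and under the standard diet (horizontal axis, same unit), with equal effects on the dashed line. Named genes with positive interactions, such as Ttyh1 and Eef1a2, lie above the line and those with negative ones, such as Lmx1b and Hdac6, below it, and Tph1 lies farthest from the line among the lactogen response genes that are named.

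Among genes with positive interactions, Eef1a2 had the smallest p. It stood at 84.9, 67.8 and 72.0 CPM in HFD KO, 18.3, 22.8 and 21.4 CPM in HFD WT, 32.9, 41.8 and 29.6 CPM in STD KO and 30.8, 34.0 and 27.5 CPM in STD WT. Each HFD KO library exceeded every other library, HFD WT libraries were the lowest of all, and the STD groups overlapped. The knockout effect was 1.85 (log2) under the high fat diet and 0.18 under the standard diet, which gave an interaction of 1.67 (SE 0.22, 95% interval 1.18 to 2.15, edgeR adjusted p = 0.157). Over the 24 alternative analyses the interaction of Eef1a2 lay between 1.45 and 1.91, and its adjusted p between 1.43e-07 and 0.688. Eef1a2 spans positions 181147653 to 181157014 of mm10 chromosome 2, on the minus strand.

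Ttyh1 and Serpina7 were highest in HFD KO islets. Ttyh1, which encodes a membrane protein of the tweety family found in neural tissue, had 128, 60.0 and 60.9 CPM in HFD KO, 10.7, 12 and 11.1 CPM in HFD WT, 12.7, 15.3 and 14.7 CPM in STD KO and 11.3, 10.6 and 6.90 CPM in STD WT. Serpina7, which encodes the thyroxine-binding globulin of plasma and stands in the dedifferentiation list, had 99.2, 64.9 and 33.8 CPM in HFD KO, 16.6, 14.1 and 13.2 CPM in HFD WT, 12.3, 10.5 and 12 CPM in STD KO and 11.8, 10.7 and 16.8 CPM in STD WT. For both, every HFD KO library lay above every library of the other 3 groups, which lay close to each other. The interactions were 2.31 for Ttyh1 (SE 0.40, edgeR adjusted p = 0.376) and 2.35 for Serpina7 (SE 0.45, edgeR adjusted p = 0.457). Dlg2, a scaffold protein of synapses, had the same shape at a lower level, with 14.5, 11.8 and 14.1 CPM in HFD KO and between 3.10 and 5.23 CPM in the other 9 libraries (interaction 1.72, SE 0.27, edgeR adjusted p = 0.306). The dedifferentiation list that holds Serpina7 had 7 positive and 7 negative interactions among 14 tested genes. Its median was 0.07, with 0 called (0%).

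Eef1a2, Ttyh1, Serpina7 and Dlg2 differed by diet within the knockout. That contrast is part of the interaction and uses the same KO libraries, so it is not separate support for these genes. Between HFD KO and STD KO, 7 genes (0.0435%) passed, 5 (0.0311%) higher and 2 (0.0124%) lower, while 0 (0%) passed between HFD WT and STD WT. Ttyh1 rose by 2.55, Serpina7 by 2.51, Dlg2 by 1.49 and Eef1a2 by 1.11 on the log2 scale in HFD KO over STD KO islets (edgeR adjusted p = 0.032, 0.032, 0.032 and 0.040). Their diet effects in WT were 0.23, 0.16, −0.23 and −0.56. The other 3, listed after their values were seen, were Pdyn, the opioid precursor (2.38 in KO and 1.08 in WT), Kcnj12, an inwardly rectifying potassium channel (−1.86 in KO and −0.85 in WT), and Gnai1, an inhibitory G protein subunit (−0.90 in KO and −0.49 in WT). Their interactions were 1.30, −1.01 and −0.41 (edgeR adjusted p = 0.621 each). The count of 7 was 0 to 2 in 10 of the 12 fits that left out 1 library, 9 without HFD WT 2 and 801 without HFD KO 3. It was 0 with the replicate number as a block, whether over all groups or within each diet.

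Gfra3 and Cebpd had positive knockout effects under both diets, with larger values under the high fat diet. Gfra3, the receptor for the neurotrophic ligand artemin, had 92.8, 73.0 and 90.7 CPM in HFD KO, 2.79, 1.91 and 2.46 CPM in HFD WT, 64.0, 69.2 and 56.5 CPM in STD KO and 5.41, 5.96 and 11.5 CPM in STD WT. The KO groups were both far above the WT groups, and the distance between the WT groups was wider than that between the KO groups on the log scale. Its knockout effects of 5.16 under the high fat and 3.05 under the standard diet both passed, and their difference was 2.10 (SE 0.37, edgeR adjusted p = 0.376). Cebpd, a transcription factor of acute responses, had 45.1, 39.7 and 49.8 CPM in HFD KO, 8.10, 8.76 and 8.81 CPM in HFD WT, 31.3, 30.5 and 39.7 CPM in STD KO and 15.4, 14.8 and 24.9 CPM in STD WT (interaction 1.51, SE 0.28, edgeR adjusted p = 0.414). For both genes HFD WT libraries were the lowest, and the fitted diet effect was −1.67 (Gfra3) and −1.10 (Cebpd) in WT against 0.44 and 0.41 in KO, none of which passed. STD WT 3 was the highest STD WT library for both. Without it the interactions were 1.68 (Gfra3) and 1.22 (Cebpd), the lowest of the fits that left out 1 library.

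On the negative side, HFD WT was the highest group for Hdac6, Cabp7, Itpr2 and Lmx1b, which were among the genes of smallest p. Hdac6 had 34.1, 34.3 and 39.2 CPM in HFD KO, 88.3, 90.0 and 97.1 CPM in HFD WT, 56.2, 44.5 and 49.7 CPM in STD KO and 58.4, 66.5 and 52.3 CPM in STD WT. Every HFD WT library exceeded, and every HFD KO library fell short of, all STD libraries, whose groups overlapped. The interaction was −1.12 (SE 0.18, 95% interval −1.52 to −0.73, edgeR adjusted p = 0.306). Cabp7, a calcium-binding protein, had 18.7, 23.8 and 27.3 CPM in HFD KO, 77.2, 62.8 and 84.5 CPM in HFD WT, 45.3, 32.4 and 47.1 CPM in STD KO and 42.1, 44.1 and 54.4 CPM in STD WT (interaction −1.51, SE 0.27, edgeR adjusted p = 0.376).

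Itpr2 and Lmx1b had lower values in KO than in WT under both diets. Itpr2, a calcium release channel of the endoplasmic reticulum, had 14.5, 19.0 and 15.7 CPM in HFD KO, 58.3, 53.6 and 61.9 CPM in HFD WT, 28.9, 22.1 and 26.9 CPM in STD KO and 45.7, 44.2 and 37.0 CPM in STD WT. It fell in KO under each diet (−1.82 under the high fat and −0.70 under the standard diet, edgeR adjusted p = 0.034 for the second), with no overlap between genotypes, and the interaction was −1.12 (SE 0.21, edgeR adjusted p = 0.414). Lmx1b, a transcription factor of serotonergic neurons, had 1.36, 1.86 and 2.04 CPM in HFD KO, 10.8, 8.46 and 12.9 CPM in HFD WT, 3.71, 3.64 and 4.69 CPM in STD KO and 7.80, 8.68 and 6.79 CPM in STD WT (interaction −1.65, SE 0.33, edgeR adjusted p = 0.478). The order of the 4 group means was the same for Itpr2, Lmx1b, Hdac6 and Cabp7, with HFD WT highest and HFD KO lowest. Their choice by a low p for a negative interaction favours that order.

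**Figure D2:**
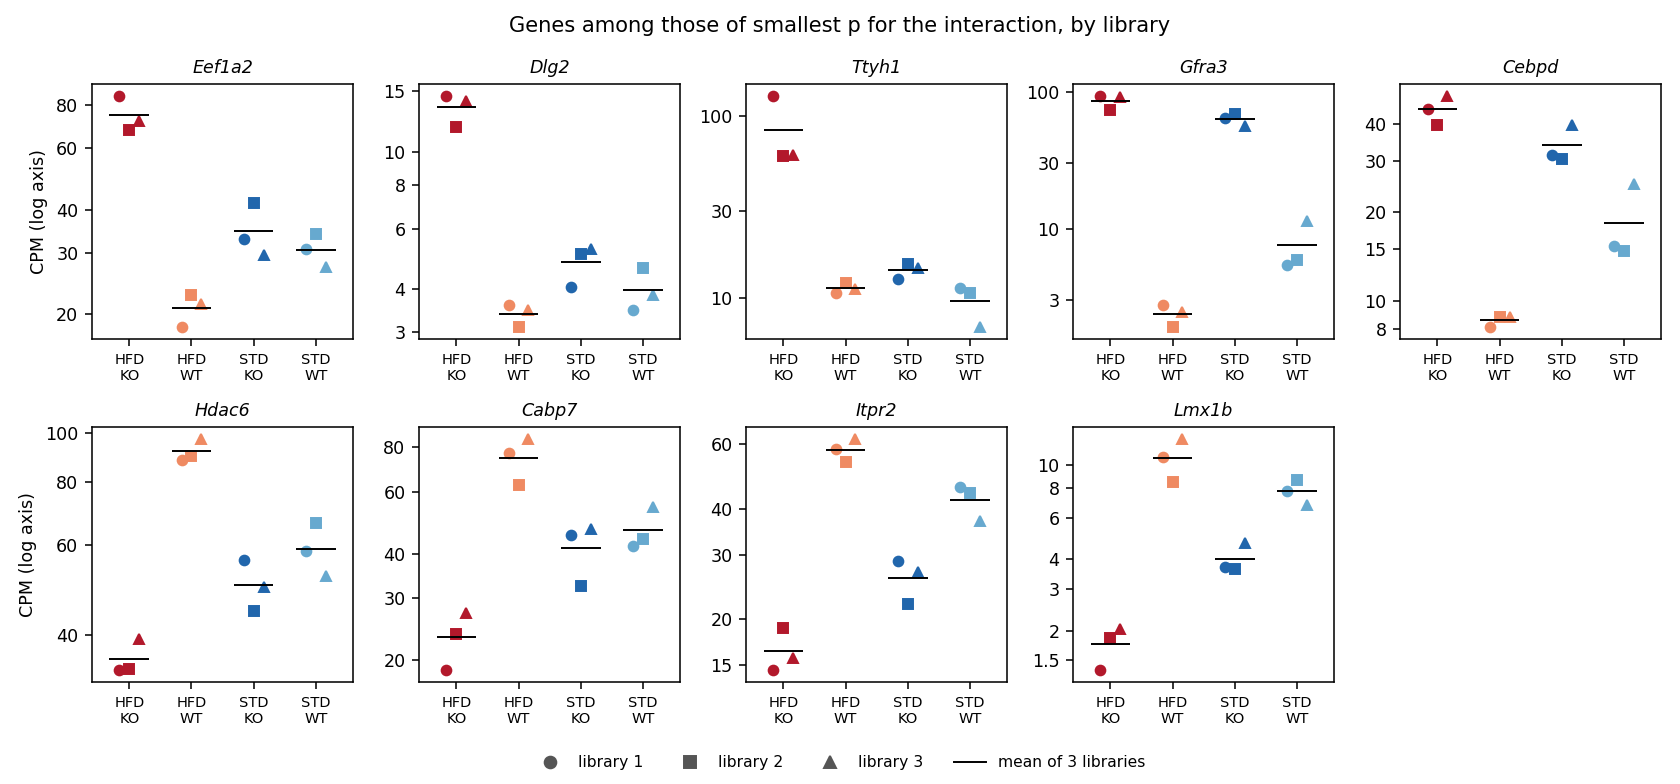
Level of 9 genes among those of smallest p, 5 with a positive interaction (top row) and 4 with a negative one (bottom row), in CPM on a log axis, for each library (points) and as the mean of 3 libraries (lines). HFD KO and HFD WT do not overlap in any of the 9 genes, and the STD groups overlap for Eef1a2, Dlg2, Hdac6 and Cabp7. The choice of genes by a low interaction p, which uses these same libraries, favours such a separation, so it is not separate support.

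Genes of sterol synthesis had mostly negative interactions. The list, like the others, was written with earlier results of these data known. It held 24 genes of cholesterol synthesis and uptake, the pathway that SREBP2 switches on when cell sterol is low, and 23 were tested. None was called for the interaction (0%), 20 of 23 had negative values and 10 an unadjusted p under 0.05 in that direction, against 1 in the positive direction. Over all genes 4.12% had such a negative and 3.78% such a positive value. The median interaction of the list was −0.42, against 0.01 over all genes, with median knockout effects of −0.41 under the high fat and −0.06 under the standard diet. Under the high fat diet 1 member rose and 8 fell in KO relative to WT, against 3.9% higher and 3.5% lower over all genes. Under the standard diet 1 rose and 0 fell, against 1.34% and 0.367%.

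Most enzymes of the pathway had negative values. Hmgcs1, an early enzyme of the pathway, had 21.4, 23.5 and 27.3 CPM in HFD KO, 39.8, 36.5 and 43.4 CPM in HFD WT, 45.1, 30.7 and 34.1 CPM in STD KO and 34.4, 39.2 and 30.1 CPM in STD WT (interaction −0.81, SE 0.23). All HFD KO libraries lay below every other library, and the STD groups overlapped. Cyp51, the lanosterol demethylase, had an interaction of −0.56 (SE 0.19). Dhcr7, the last reductase, had one of −0.45 (SE 0.18) from positive knockout effects, 0.46 under the high fat diet and 0.91 under the standard diet, where it rose (edgeR adjusted p = 0.003). Ebp, a sterol isomerase, had a positive interaction of 0.39 (SE 0.18).

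The regulators and a sterol carrier had the same sign. Srebf2, which encodes SREBP2, had 51.2, 74.2 and 95.1 CPM in HFD KO, 132, 181 and 170 CPM in HFD WT, 124, 101 and 139 CPM in STD KO and 142, 120 and 117 CPM in STD WT. All HFD KO libraries lay below the lowest library of any other group, and the STD groups overlapped (interaction −1.07, SE 0.31). Stard4, a sterol carrier, and Insig1, which retains the SREBP complex in the endoplasmic reticulum, had interactions of −0.87 (SE 0.21) and −0.54 (SE 0.23). The edgeR adjusted p was 0.621 for each member with a negative interaction named here, and these genes were chosen after their values were seen.

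Between 8 and 12 of the tested sterol genes had an unadjusted p under 0.05 with a negative sign in the 12 fits without 1 library, and the list's median lay between −0.54 (without HFD KO 3) and −0.31 (without STD KO 1). Over all genes that number ran from 333 (without HFD WT 3) to 1490 (without HFD KO 3), against 663 with all libraries. Without STD KO 1, the library with the hepatocyte transcripts, 8 members had a low negative p, against 10 with all libraries. The promoters of 16 members were in the RefSeq table (GRCm38.p6), searched from 250 bases before to 50 after the start. Only 1, that of Hmgcs1 (6.25%), held the letters of a sterol response element, TCACNCCAC on either strand, against 388 of 27025 promoters (1.44%). The same letters stood in 1 of 12 promoters of the lactogen list (8.33%), that of Ehhadh, so 1 match does not set the sterol list apart. The Hmgcs1 promoter is shown because Hmgcs1 is the member in which these letters and a low p coincide. The stretch is chr13:119690101-119690350 on the plus strand, with the match in capitals.
Hmgcs1: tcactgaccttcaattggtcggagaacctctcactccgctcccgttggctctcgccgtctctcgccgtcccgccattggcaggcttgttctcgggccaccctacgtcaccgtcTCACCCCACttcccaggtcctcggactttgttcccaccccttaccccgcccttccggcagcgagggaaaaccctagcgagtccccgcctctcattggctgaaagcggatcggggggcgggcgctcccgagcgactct

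Fatty acid synthesis genes behaved like the sterol genes in sign. Of 17 tested members 0 were called (0%), 14 had negative interactions and 6 an unadjusted p under 0.05 in that direction (4.12% over all genes), with a median of −0.56. Acly, which makes cytosolic acetyl-CoA from citrate, had 848, 730 and 1317 CPM in HFD KO, 1707, 1255 and 1715 CPM in HFD WT, 1203, 917 and 1203 CPM in STD KO and 935, 922 and 886 CPM in STD WT. HFD KO 3 lay inside the HFD WT range, and the interaction was −0.97 (SE 0.33, edgeR adjusted p = 0.621). Acaca, Fasn and Srebf1, the carboxylase, the synthase and the transcription factor of this pathway, had −0.87, −1.02 and −0.73, each chosen after its value was seen. The median was −0.34 and 3 members had a low negative p without STD KO 1, and 2, 3, 3, 2 and 9 did without STD WT 3, HFD WT 3, HFD KO 2, HFD KO 1 and HFD KO 3. Over all genes 354, 594, 333, 417, 381 and 1490 had a low negative p in these fits, in the same order.

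**Figure D3:**
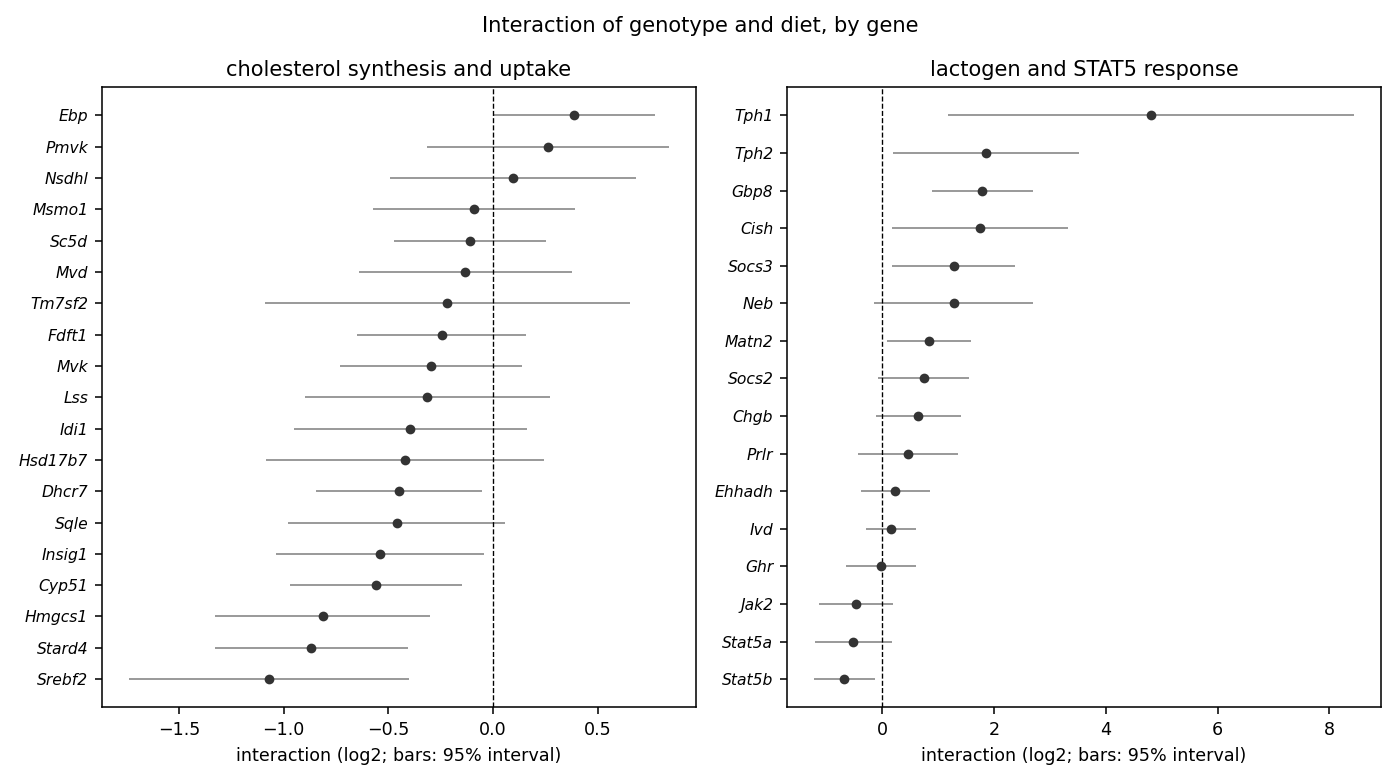
Interaction of 19 sterol genes and 16 lactogen genes (log2, horizontal axis) with its 95% interval (bars) for cholesterol synthesis and uptake (left) and for the lactogen and STAT5 response (right), sorted by value. Of the 19 sterol genes drawn 16 lie below 0, and of the 16 lactogen genes 12 lie above 0, with the widest interval for Tph1.

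The lactogen and STAT5 response comprises the genes that prolactin and placental lactogen induce in beta cells during pregnancy through the prolactin receptor, JAK2 and STAT5. Among its 16 members 11 rose and 0 fell in KO under the high fat diet, against 3.9% higher and 3.5% lower over all genes, and 10 rose and 0 fell under the standard diet, against 1.34% and 0.367%. The list was written with earlier results of these data known, so these counts are not independent of those results. For the interaction 0 members were called (0%), 12 had positive values and 6 a positive value with an unadjusted p under 0.05 (3.78% over all genes), and the median was 0.69. The question was whether the size of the knockout effect differed by diet. Over the fits without 1 library the number of members with a low positive p ranged from 1 (without STD WT 3) to 9 (without STD WT 1 or HFD KO 2). It was 2 without STD KO 3 or HFD WT 3, 3 without HFD WT 1, HFD KO 1 or HFD KO 3, and 4 to 7 in the others. With the replicate number as a block it was 3 over all groups and 2 within each diet. Over all genes the number ran from 309 to 1559 in the fits without 1 library. With the block it was 667 over all groups and 649 within each diet.

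The receptor and its signalling chain had small or negative values. Prlr, the prolactin receptor, had 812, 354 and 707 CPM in HFD KO, 208, 127 and 193 CPM in HFD WT, 595, 507 and 613 CPM in STD KO and 182, 269 and 218 CPM in STD WT. It rose in KO under both diets without overlap, and its interaction was 0.47 (SE 0.41, 95% interval −0.43 to 1.36, edgeR adjusted p = 0.732). Jak2, Stat5a and Stat5b, the kinase and the transcription factors downstream of the receptor, had interactions of −0.47, −0.52 and −0.68 (edgeR adjusted p = 0.650, 0.641 and 0.621), values chosen after they were seen.

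Among the targets, Tph1, the first enzyme of serotonin synthesis, had the largest interaction of the list, and it rested on 1 WT library. Tph1 had 1149, 701 and 825 CPM in HFD KO, 1.29, 0.89 and 0.97 CPM in HFD WT, 382, 595 and 390 CPM in STD KO and 1.33, 0.70 and 43.5 CPM in STD WT. STD WT 3, at 43.5 CPM, stood far above the other 5 WT libraries, and HFD KO libraries exceeded those of STD KO. The interaction was 4.81 (SE 1.64, 95% interval 1.17 to 8.44, edgeR adjusted p = 0.621), and it was 0.95 without STD WT 3. Tph2, the second tryptophan hydroxylase, had 33.2, 26 and 25.2 CPM in HFD KO, 0.80, 0.54 and 0.52 CPM in HFD WT, 22.7, 23.4 and 19.2 CPM in STD KO and 0.46, 1.20 and 3.62 CPM in STD WT. Its interaction was 1.85 (SE 0.75), against 0.74 without STD WT 3.

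The feedback inhibitors of the pathway showed the same library. Cish, which is induced by STAT5 and dampens it, had 74.4, 62.9 and 71.7 CPM in HFD KO, 2.95, 4.65 and 4.00 CPM in HFD WT, 69.7, 63.6 and 62.9 CPM in STD KO and 8.26, 3.68 and 24.4 CPM in STD WT. The KO groups overlapped between diets, the WT groups differed mainly through STD WT 3, and the interaction of 1.74 (SE 0.71) was 0.73 without that library. Socs2, a related inhibitor, had 121, 86.8 and 99.4 CPM in HFD KO, 10.6, 13.9 and 12.8 CPM in HFD WT, 100, 104 and 88.3 CPM in STD KO and 15.5, 13.6 and 30.3 CPM in STD WT (interaction 0.74, SE 0.37, and 0.29 without STD WT 3). STD WT 3 was the highest STD WT library for Tph1, Tph2, Cish, Socs2, Matn2, Neb and Gbp8. Leaving it out left the list with a median of 0.43, the lowest of the 12 such fits.

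Gbp8, a guanylate-binding protein, had the smallest p of the list. It had 97.4, 80.6 and 79.1 CPM in HFD KO, 1.07, 2.92 and 1.37 CPM in HFD WT, 35.3, 44.1 and 38.5 CPM in STD KO and 2.57, 2.22 and 3.68 CPM in STD WT. Each HFD KO library exceeded each STD KO library, and its interaction was 1.79 (SE 0.42, 95% interval 0.88 to 2.70, edgeR adjusted p = 0.621), against 1.56 without STD WT 3. Matn2, a matrix protein, had 283, 207 and 310 CPM in HFD KO, 8.69, 9.36 and 8.06 CPM in HFD WT, 327, 332 and 306 CPM in STD KO and 13.0, 16.0 and 27.3 CPM in STD WT. Its interaction was 0.84 (SE 0.34, and 0.46 without STD WT 3) on the log2 scale, while the difference of the knockout differences in mean CPM was −45.1, so its sign depends on the scale. Over the 31 genes named by rule the sign was the same on both scales.

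Ivd and Ehhadh, chosen after their values were seen, had large knockout effects of similar size under both diets. Ivd, an enzyme of leucine breakdown, had 293, 258 and 318 CPM in HFD KO, 64.6, 59.8 and 71.0 CPM in HFD WT, 282, 298 and 287 CPM in STD KO and 61.6, 69.8 and 86.9 CPM in STD WT. The KO libraries of both diets lay together, far above the WT libraries of both diets. The knockout effects of Ivd were 2.15 under the high fat and 1.99 under the standard diet, and the interaction of 0.16 had a 95% interval of −0.29 to 0.61. Ehhadh, a peroxisomal enzyme of fatty acid oxidation, had knockout effects of 2.07 under the high fat and 1.83 under the standard diet, with an interaction of 0.24 (95% interval −0.38 to 0.85).

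**Figure D4:**
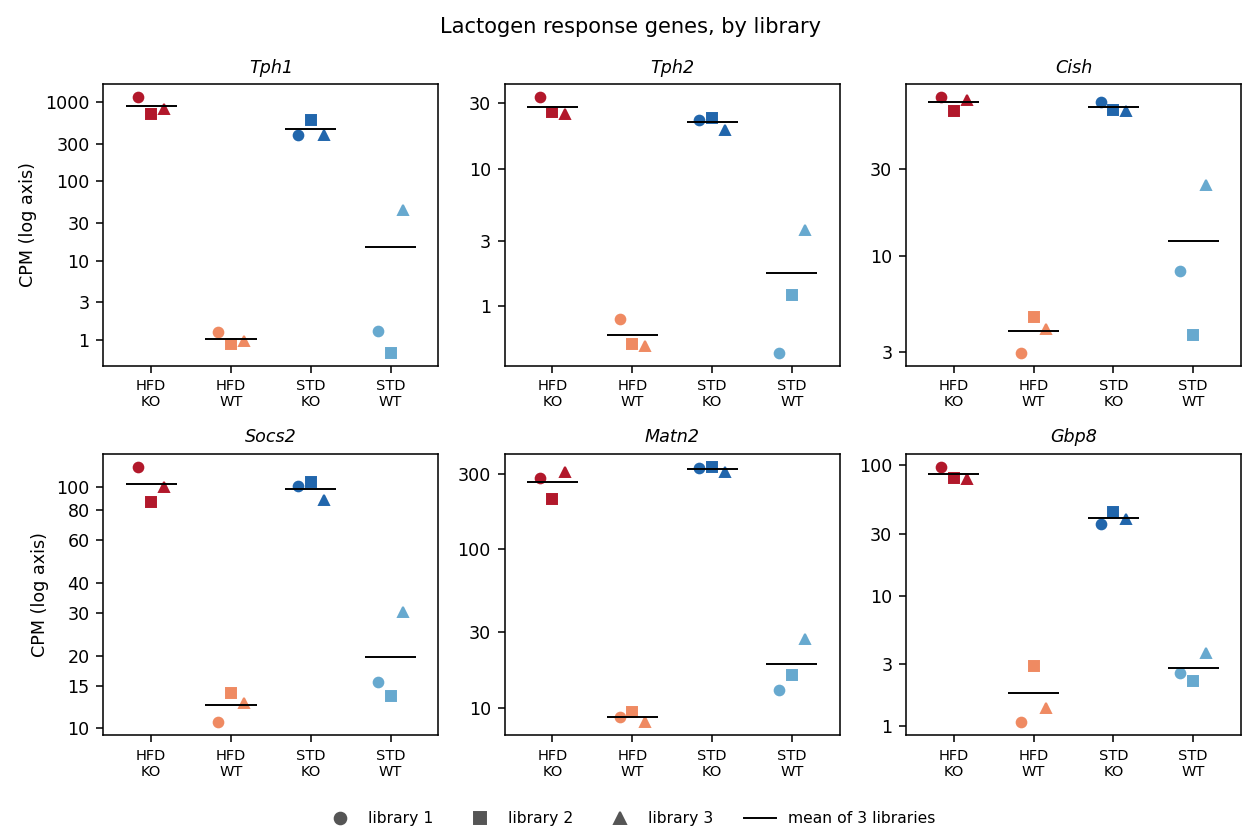
Level of 6 lactogen response genes in CPM on a log axis for each library (points), with the mean of 3 libraries (lines). KO libraries lie above WT libraries under both diets, and STD WT 3 (light triangle) is the highest STD WT library in each panel, at 43.5 CPM for Tph1.

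The promoters of 12 members of the lactogen list were in the RefSeq table, and 4 of them, those of Cish, Ivd, Prlr and Socs3 (33.3%), held the STAT5 core TTCNNNGAA, which reads the same on both strands, against 2582 of 27025 promoters (9.55%). Cish, which has a pair of matches, is shown from 100 bases before its start to 20 bases after it, chr9:107296559-107296678 on the plus strand of GRCm38.p6, with the matches in capitals. The windows were chosen after the values were seen, and a match is a run of letters, not a bound site.
Cish: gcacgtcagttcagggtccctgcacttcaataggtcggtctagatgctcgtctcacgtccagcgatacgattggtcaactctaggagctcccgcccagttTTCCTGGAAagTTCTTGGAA

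Beta cell genes had mostly negative interactions of small size. Of 30 tested identity genes 0 were called (0%), 23 had negative and 7 positive values, 4 had an unadjusted p under 0.05 and a negative value (1 to 6 in the fits without 1 library, with 1 without STD WT 1, HFD WT 1, HFD WT 3 or HFD KO 1), and the median was −0.24. Over all genes 4.12% had a low negative p with all libraries, and 333 to 1490 genes did in the fits without 1. Under the high fat diet 1 identity gene rose and 8 fell in KO, where 3.9% of all genes were higher and 3.5% lower. Under the standard diet 0 rose and 1 fell, where 1.34% were higher and 0.367% lower. Ucn3, a marker of mature beta cells, had 253, 274 and 272 CPM in HFD KO, 693, 472 and 590 CPM in HFD WT, 287, 378 and 298 CPM in STD KO and 358, 448 and 530 CPM in STD WT. The genotypes did not overlap under the high fat diet and did under the standard diet, and the interaction was −0.66 (SE 0.27, 95% interval −1.25 to −0.07, edgeR adjusted p = 0.621). Slc2a2, the glucose transporter GLUT2, had 366, 233 and 408 CPM in HFD KO, 792, 496 and 786 CPM in HFD WT, 525, 396 and 495 CPM in STD KO and 424, 792 and 753 CPM in STD WT, with an interaction of −0.57 (SE 0.41, edgeR adjusted p = 0.672).

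Abcc8, the sulfonylurea receptor of the potassium channel that couples glucose to secretion, had 413, 422 and 593 CPM in HFD KO, 855, 698 and 878 CPM in HFD WT, 546, 551 and 605 CPM in STD KO and 545, 555 and 667 CPM in STD WT (interaction −0.71, SE 0.25). HFD KO and HFD WT did not overlap, and the STD groups did. Ins1 had an interaction of 0.63 (SE 0.43, 95% interval −0.31 to 1.57) and Ins2 one of 0.25 (SE 0.42, 95% interval −0.67 to 1.16). Ins1 and Ins2 are close copies whose reads may be split between them, so their separate values are uncertain. Cacna1c, the calcium channel that triggers insulin release, had −0.83 (SE 0.33), in an exocytosis list with a median of −0.13 over 29 genes, 0 called (0%).

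Respiratory and ribosomal genes had positive values that went with gene length. Of 58 nuclear genes of oxidative phosphorylation 55 had positive interactions, with a median of 0.53, 8 of them with an unadjusted p under 0.05 and 0 called (0%), and all 38 tested genes of cytosolic ribosomal proteins were positive, with a median of 0.43, 0 of them with an unadjusted p under 0.05. The genes of both lists are short, with median lengths of 797 and 678 bases as the deposited FPKM and counts give them, against 1799 over all genes tested. Over all genes the interaction fell with gene length (Spearman rho −0.27), as did the knockout effect under the high fat diet (−0.31), while that under the standard diet hardly did (−0.05). With offsets corrected for length in each library the medians were 0.21 for oxidative phosphorylation, with 2 genes of low positive p, and 0.17 for ribosomal proteins, with 0. The number of respiratory genes with a low positive p was 41 without HFD KO 3, 16 without STD KO 2, 9 without HFD WT 1 and 1 to 4 without any other single library, and the median ran from 0.23 (without HFD KO 2) to 0.76 (without HFD KO 3). Over all genes that number was 1559, 977 and 655 without HFD KO 3, STD KO 2 and HFD WT 1, against 608 with all libraries. The ribosomal median ran from 0.07 (without HFD KO 2) to 0.72 (without HFD KO 3), with 18 genes of low positive p without HFD KO 3, 1 without HFD WT 2 and 0 without any other single library.

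The lists of stress and antioxidant genes had positive medians. The median was 0.27 over 30 genes of the unfolded protein response and integrated stress and 0.20 over 27 antioxidant genes, each with 4 genes of low positive p and 0 called (0%). Those counts were 0 to 7 and 0 to 10 in the fits without 1 library, both 0 without HFD WT 3 or HFD KO 1. Over all genes the number of low positive p was 608 with all libraries and 309 to 1559 in these fits. With length-corrected offsets the medians of the stress and antioxidant lists were 0.13 and 0.11, and their counts 0 and 3. Creld2, an endoplasmic reticulum chaperone, had an interaction of 0.71 (SE 0.27) and Gpx3, a secreted glutathione peroxidase, 0.94 (SE 0.37). Txnip, which glucose induces and which binds thioredoxin, had the smallest p of the glucose response list, with 881, 575 and 870 CPM in HFD KO, 384, 283 and 340 CPM in HFD WT, 708, 517 and 600 CPM in STD KO and 428, 526 and 575 CPM in STD WT and an interaction of 0.95 (SE 0.30, edgeR adjusted p = 0.621). HFD KO and HFD WT did not overlap, while STD KO 2 at 517 CPM lay inside the STD WT range. The glucose response list had 5 positive and 5 negative interactions among 10 tested genes, with a median of −0.04 and 0 called (0%).

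Over the 32 gene lists the median interactions ran from −0.82 to 0.86, and 22 lay within 0.5 of 0. Markers of other cell types stood at both ends, and their medians moved with single libraries. The lymphocyte list had a median of −0.82, with a range of −1.85 to 0.77 over the fits without 1 library, and its summed level was 73.7 CPM in HFD WT 1 and 514 to 2832 CPM in the other 11 libraries. The stellate cell, fibroblast and matrix list had a median of 0.86 (0.23 to 1.59), and its summed level was 500 to 1292 CPM in HFD KO, 420 to 721 CPM in HFD WT, 791 to 1080 CPM in STD KO and 705 to 922 CPM in STD WT. The immediate early and heat shock list had 0.74 (0.36 to 1.08), with Btg2, an antiproliferative early gene, at 0.89 (SE 0.33), and the macrophage list 0.37 (0.19 to 0.64), with Mrc1, the mannose receptor, at 2.04 (SE 0.61). The edgeR adjusted p was 0.621 for each of these 2 genes. Of 24 immediate early genes 2 had a low positive and 2 a low negative p, and Mrc1 was the 1 of 23 macrophage genes with either. Over all genes 3.78% had a low positive and 4.12% a low negative p. In bulk islets fewer cells of a type and less RNA per cell cannot be told apart, and the part of these cells in the values above was not tested.

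The liver and gut transcripts of STD KO 1 and STD KO 3 also appeared in the interaction. All 12 hepatocyte genes had negative values, with a median of −4.11 and 8 of them among the 663 genes of low negative p, and without STD KO 1 the median was 0.25 with 0 of low p. Of the 9 tested genes of the intestinal epithelium 8 had negative values, and 0 had a low negative p. The median over the 9 was −5.27, and 0.74 without STD KO 3. These are the points along the horizontal axis at the right of the plot of knockout effects.

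**Figure D5:**
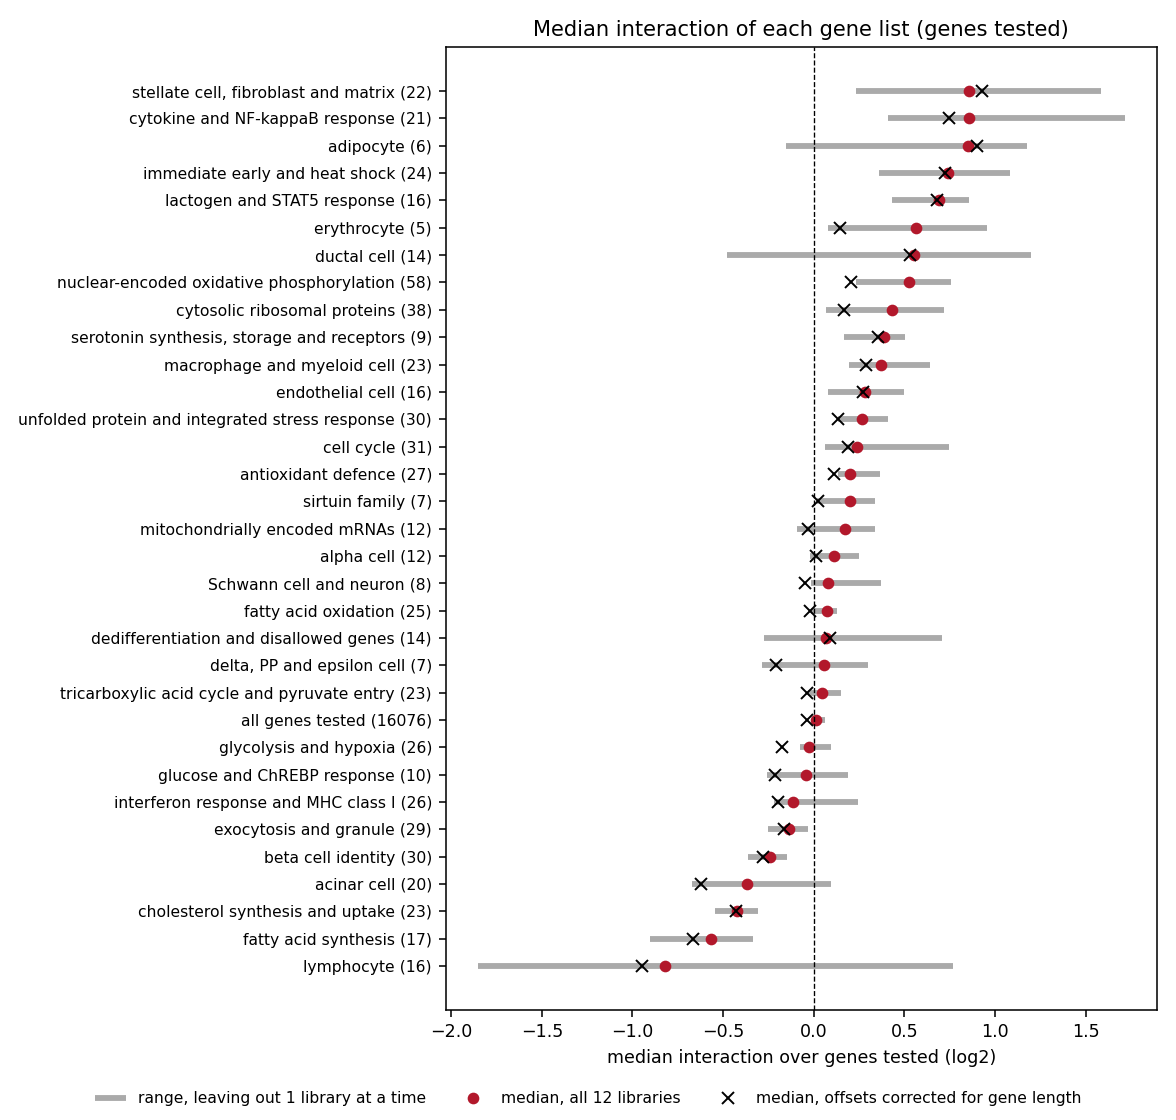
Median interaction over the tested genes of each list (log2, horizontal axis; number of genes in brackets) with all 12 libraries (red), its range over fits that leave out 1 library (grey) and its value with offsets corrected for gene length (crosses). The cholesterol, fatty acid synthesis and beta cell identity lists stay below 0 and the lactogen list above 0 in each of these fits. Many other lists also keep their sign, among them the stellate, cytokine, immediate early, macrophage and oxidative phosphorylation lists. The ranges of the lymphocyte, acinar, ductal and adipocyte lists, among others, cross 0. Fits that leave out 1 library share most libraries, so an equal sign is not separate support.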

How the data were processed

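RNA of 12 islet libraries was analysed from the read counts per gene that the authors deposited for each library, without normalization. Per the submitters' processing notes, mm10, TopHat2, Cufflinks and DESeq were used, with no versions; the sources used here do not give the counting tool, the annotation or strandedness. The FPKM values that the authors deposited for the same genes served as an alternative unit.

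Counts were fitted with edgeR 4.0.16 (R 4.3.3): filterByExpr with a minimum count of 10 and a minimum total of 15, TMM scaling, 1 mean for each of the 4 groups, robust quasi-likelihood tests of 5 contrasts, and Benjamini-Hochberg adjustment over the 16076 genes tested, with a threshold of 0.05. Standard errors and 95% intervals came from the same fit (common biological coefficient of variation 0.307). Totals of 16037709 to 20864920 counts came with chi-square values of 26.6 to 101 per degree of freedom within groups. Pooled over genes, spread between libraries thus exceeded counting error. Abundant genes weigh most in these values, which do not show the same for weakly expressed genes. The fit was tested on simulated data of 15885 genes. Ensembl IDs were matched to symbols (54409 found) and to GENCODE M21 coordinates.

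Alternatives, whose effect is given below, were the size factors and the Wald test of DESeq2 1.42.0, voom of limma 3.58.1 with and without sample quality weights, no filter or one of 1 CPM in 6 libraries, limma-trend on FPKM in log2 after adding 1 or 0.1 (genes whose mean FPKM reached 0.5), replicate numbers as a block, length-corrected offsets, and leaving out libraries. Voom without weights was chosen after seeing the data. Same-numbered libraries deviated together in the HFD groups (correlations of their deviations from group means 0.51, 0.41 and 0.34) but not in the STD groups (0.00, −0.17 and −0.23). Over all pairs of groups the library of the same number was the best partner in 5 of 18 comparisons. Whether the numbers mark a true pairing was not tested.

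The genes named were, by rule, 10 always named, the 5 smallest p in each direction whose mean reached 2 CPM and the smallest p of each list described (31 in all); others were chosen after their values were seen. Some genes that the rule or the lists hold are not reported here by name. The lists, the rule and the contrast were chosen with earlier results of these data known.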

Additional observations from a re-analysis of the deposited data

How the results depend on the processing

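The count of genes called for the interaction was 0 in 21 of the 24 alternatives, the 12 fits without 1 library and both fits with a replicate block included. It was 31 with the Wald test of DESeq2, 1 (Eef1a2) with no filter on low counts and 3618 with limma voom and sample quality weights, against 0 with voom without weights. Those weights ran from 0.31 (HFD KO 3) to 6.70 (HFD WT 3). The knockout contrast under the high fat diet called 2033 genes with DESeq2, 7257 with weighted voom, 745 without STD WT 3 and HFD KO 2, and 519 to 2899 in the fits without 1 library. The knockout contrast under the standard diet called 484, 720 and 146 to 296 with DESeq2, weighted voom and 1 library left out. The diet contrast in KO called 140 with DESeq2, 4205 with weighted voom, 2 and 3 on log2 FPKM with a pseudocount of 1 and 0.1, 2 without STD WT 3 and HFD KO 2, 0 with either replicate block, and 0 to 801 without 1 library. The diet contrast in WT called 43 with DESeq2 and 343 with weighted voom. With the block over all groups or within each diet the knockout contrast called 1343 or 1291 genes under the high fat diet, against 1189 without it, and 243 or 227 under the standard diet, against 275. The interaction of none of the 70 named genes passed or lost the threshold with a block. The cause of these shifts was not tested.

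Of 1680 values for 70 named genes, 1602 kept their direction and side of the threshold, 77 newly passed it, and 1 changed sign: Ins2, at −0.12 with length-corrected offsets. Depth limited the weakly expressed genes that were filtered out. Among the genes tested, the parts of counting error and of spread between libraries were not measured gene by gene.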

Other observations

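Genes of the secretory pathway and of signalling stood among those with small p-values that no list held; they were picked after their values were seen, and none passed adjustment in edgeR. Car8, a protein related to carbonic anhydrases that binds the inositol trisphosphate receptor, had 346, 321 and 226 CPM in HFD KO, 29.0, 23.5 and 27.2 CPM in HFD WT, 142, 175 and 145 CPM in STD KO and 51.3, 27.9 and 38.4 CPM in STD WT. Each HFD KO library exceeded each STD KO library, and the interaction was 1.52 (SE 0.31, adjusted p = 0.590). Derl3 and Kdelr3, which act in degradation and retention of endoplasmic reticulum proteins, had interactions of 1.24 (SE 0.29) and 1.0 (SE 0.23). Rgs4, a regulator of G protein signalling, had 112, 74.8 and 123 CPM in HFD KO, 32.4, 28.0 and 33.0 CPM in HFD WT, 51.5, 103 and 53.6 CPM in STD KO and 59.5, 60.6 and 69.9 CPM in STD WT (interaction 1.60, SE 0.37).

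Dapl1 had a positive interaction through a knockout effect that was larger under the standard diet. It stood at 29.5, 22.3 and 13.9 CPM in HFD KO, 40.5, 32.7 and 29.5 CPM in HFD WT, 6.54, 8.93 and 4.20 CPM in STD KO and 41.0, 38.8 and 33.1 CPM in STD WT. The gene fell by 2.52 on the log2 scale in STD KO relative to STD WT (edgeR adjusted p = 0.001), the HFD groups met at 29.5 CPM, and the interaction was 1.88 (SE 0.41, adjusted p = 0.621).

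The Wald test of DESeq2 called 20 genes with positive and 11 with negative interactions. Eef1a2, Hdac6, Dlg2, Ttyh1 and Gfra3 had the 5 smallest adjusted p-values there as well as among the 5 smallest p on each side in edgeR.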
